A study of Mus musculus with 12 samples.

Results

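Collagen genes were taken as every gene whose symbol is Col, a number, the letter a and a number, which gave 44 of the 34102 genes counted by RNA-seq in this mouse series. They comprised 11 fibrillar, 9 basement membrane and 24 other collagens. The last class held 9 fibril-associated, 6 beaded filament, 4 transmembrane and 3 short-chain network genes and 2 further genes, Col26a1 and Col28a1. The series compares loss of Srsf10, an SR-family regulator of splicing, with controls in cortex tissue and in cultured neural progenitor cells (NPC), with 3 libraries in each of 4 groups. The cortex group called cKO came from C57BL/6 mice with both Srsf10 alleles floxed and Nestin-Cre, a transgene whose promoter drives Cre in neural progenitors and the cells they give rise to. Its control cortex carried the same floxed alleles without Nestin-Cre. The NPC were primary cultured cells from C57BL/6 cortex, labelled either as SRSF10 knockdown, made with a lentivirus, or as WT, called control here. Infection is described at a multiplicity of 30 with RNA taken 72 h later. The labels do not say which virus the control cells received, give no age for the mice and hold no group with Nestin-Cre alone.

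Collagens are secreted or membrane proteins whose chains wind around each other into rope-like helices. Fibrillar collagens (types I, II, III, V, XI, XXIV and XXVII) form the fibrils of connective tissue, fibril-associated collagens sit on their surface, and type IV collagens form the sheet-like network of basement membranes, to which types XV and XVIII are attached. In the brain, fibroblasts of the meninges and around vessels are known sources of types I and III, and cells of the vessel wall are known sources of Col4a1 and Col4a2.

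The libraries held 26074094 to 36713205 counts. Levels are counts-per-million (CPM) of each library's TMM-scaled total, and RPKM, which also divides by exon length, is used where genes are compared with each other. Srsf10 itself stood at 223, 187 and 224 CPM in the cKO libraries, against 198, 220 and 202 CPM in control cortex, and at 239, 220 and 217 CPM in the knockdown libraries, against 248, 227 and 223 CPM in control NPC. Its log2 fold changes were 0.03 in cortex and -0.05 in NPC (edgeR's quasi-likelihood test, Benjamini-Hochberg adjusted p = 0.917 and 0.774). The names cKO and knockdown are thus used as labels, for libraries whose Srsf10 count did not separate from controls, and a whole-gene count cannot check deletion of a floxed part. All 8 listed cortical neuron markers stood at 1 CPM or more in both cortex groups, and 5 of them in both NPC groups. All 8 progenitor and all 5 oligodendrocyte precursor markers reached it in all 4 groups. Neuron markers summed to 8067 to 8687 CPM in cortex and 1029 to 1340 CPM in NPC. Nearly all of the NPC sum was Map2, at 27457 to 40244 counts per library. Dcx had 150 to 379 counts per NPC library, against 82323 to 98746 per cortex library. Neurod2, Neurod6 and Tbr1 had 0 to 15 counts per NPC library. Progenitor markers summed to 1097 to 1341 CPM in cortex and 10128 to 11924 CPM in NPC. Oligodendrocyte precursor markers summed to 198 to 200 CPM in cKO cortex, 232 to 247 CPM in control cortex and 1732 to 1901.5 CPM in NPC. Most of that NPC sum was Olig1, at 42840 to 52040 counts per library. No label ties each library to an animal or culture of its own, so p-values measure the spread between these libraries. In bulk RNA, fewer cells of a type and less RNA per cell cannot be told apart.

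Most collagen genes were detectable in cortex, and fewer in culture. A mean of at least 1 CPM was reached by 39 members in cKO cortex, 38 in control cortex, 27 in knockdown NPC and 28 in control NPC, and by 40 in any group. The remaining 4 members, Col4a3, Col6a6, Col10a1 and Col17a1, stayed under that mean in every group, at 0.0127 to 0.659 CPM. Per length, cortex was led by the network-forming chains Col4a1 (25.8 ± 4.41 RPKM in cKO and 23.0 ± 8.25 RPKM in control, SD, n = 3 each) and Col4a2 (21.9 ± 2.99 RPKM in cKO and 19.9 ± 5.39 RPKM in control), which overlapped within their spread. Next in control cortex was Col9a3, a chain of the fibril-associated type IX, at 6.85 ± 1.87 RPKM in cKO and 11.3 ± 2.71 RPKM in control. Col3a1 followed at 6.41 ± 2.27 RPKM in cKO and 4.61 ± 3.75 RPKM in control, and Col1a2 at 5.19 ± 1.53 RPKM in cKO and 3.61 ± 2.82 RPKM in control, without separating from each other.

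NPC had a different order. Col4a5, another type IV chain, led at 12.7 ± 2.30 RPKM in knockdown and 17.0 ± 2.83 RPKM in control (SD, n = 3 each). The type V chain Col5a2 followed at 8.51 ± 0.560 RPKM in knockdown and 9.58 ± 0.235 RPKM in control, then Col9a3 at 5.91 ± 0.985 RPKM in knockdown and 7.25 ± 1.21 RPKM in control. The type V chain Col5a3 at 6.96 ± 1.11 RPKM in knockdown and 6.17 ± 0.470 RPKM in control did not separate from Col9a3. Col1a2 was almost absent from NPC, at 1 to 7 counts per library, and so was not tested there. The sources used here do not say whether both systems were counted alike, so differences in level between cortex and NPC were not tested.

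**Figure D1:**
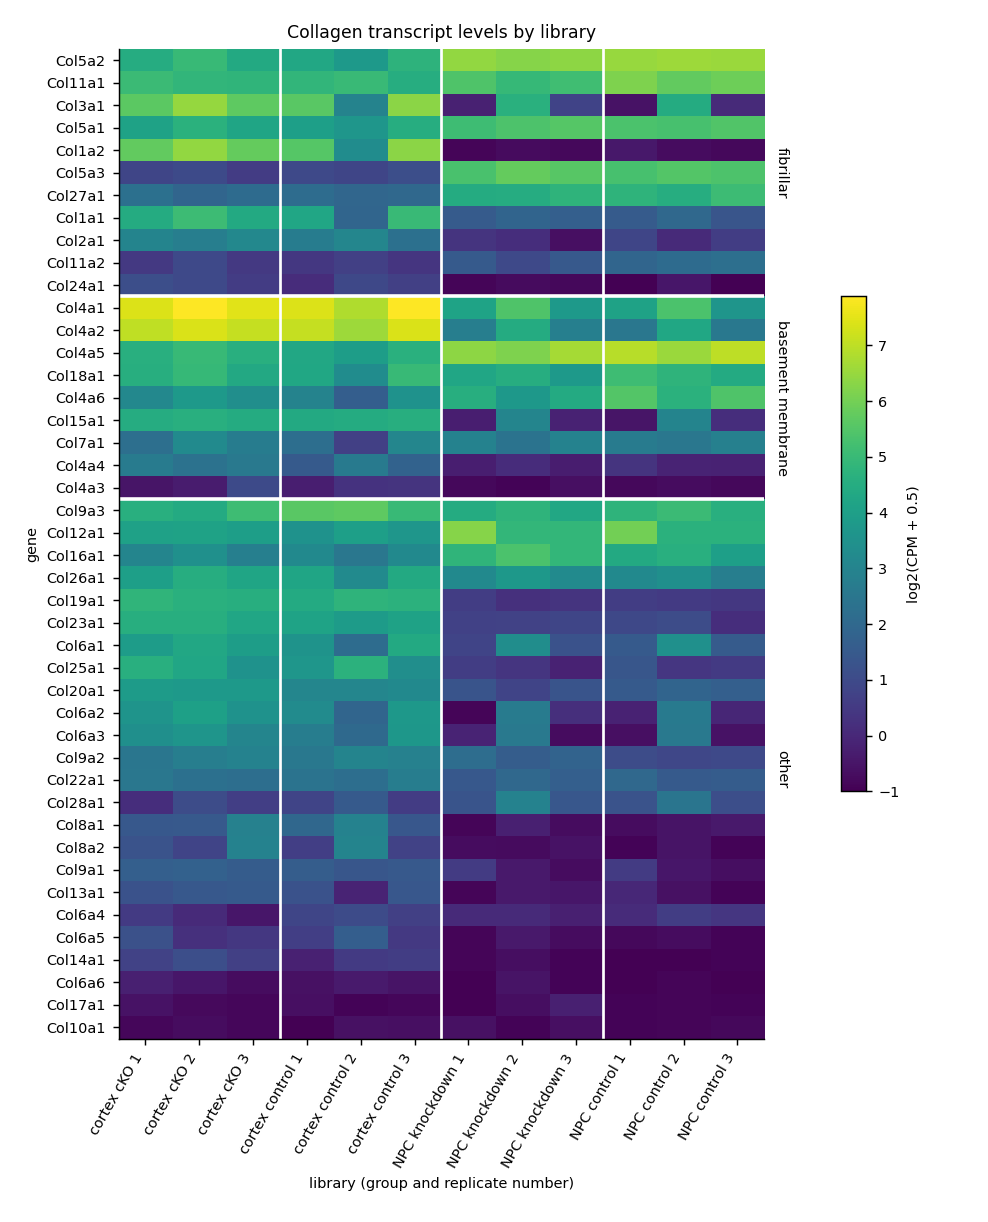
Level of each of the 44 collagen genes (rows, by class and then by mean level) in each of the 12 libraries (columns), as log2(CPM + 0.5) in colour. Col4a1 and Col4a2 are the brightest rows in cortex, Col4a5 and Col5a2 in NPC, and Col3a1, Col15a1, Col6a1, Col6a2 and Col6a3 are bright in NPC only in replicate 2 of both groups.

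In cortex, no collagen gene passed the test between cKO and control. Of the 41 members tested, 0 had an adjusted p under 0.05 by edgeR's quasi-likelihood test, where 0.171% of all genes tested did. An unadjusted p under 0.05 was found for 6 members, beside 10.9% of all genes, and DESeq2 called 2, Col20a1 and Col9a3, where it called 2.1% of all genes. Log2 fold changes were positive for 33 members and negative for 8. Their medians were 0.28 over 11 fibrillar, 0.30 over 9 basement membrane and 0.17 over 21 other collagens, against 0.0034 over all genes tested. Leaving out 1 library moved them over 0.073 to 0.46, 0.094 to 0.45 and 0.098 to 0.26 in the same order. The summed fibrillar level was 211, 307 and 207 CPM in cKO, against 188, 92.2 and 274.9 CPM in controls. Control replicate 2 stood lowest and the groups overlapped. Basement membrane collagens summed to 387, 510.1 and 403 CPM in cKO, against 379, 262 and 501 CPM in controls, with the same library lowest and the groups again overlapping. The other collagens summed to 213, 222 and 208 CPM in cKO, against 195, 203 and 205 CPM in controls, and here the groups did not overlap, at a ratio of 1.07.

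**Figure D2:**
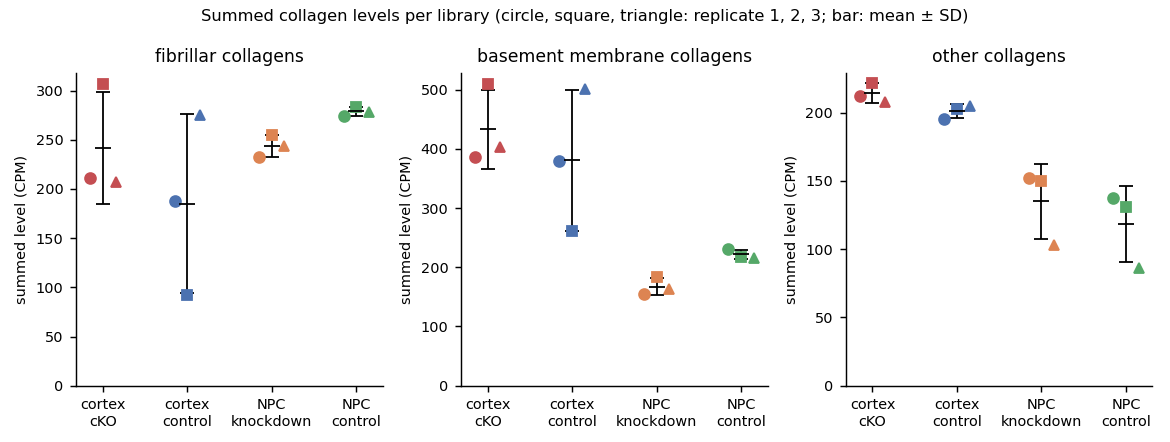
Summed level in CPM of the 11 fibrillar, 9 basement membrane and 24 other collagens in each library, with mean and SD of each group (n = 3). Control cortex replicate 2 (square) is the lowest cortex library for fibrillar and basement membrane collagens, and the knockdown NPC lie below the control NPC in both of these classes.

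The type I and III chains, which build the main fibrils of fibroblasts, moved with one cortex library. Col1a1 stood at 21.4, 33.8 and 20.7 CPM in cKO, against 18.5, 3.21 and 31.8 CPM in controls. Col1a2, its partner chain, stood at 52.8, 86.3 and 54.2 CPM in cKO, against 45.8, 9.44 and 79.5 CPM in controls. Col3a1 stood at 49.0, 88.6 and 51.2 CPM in cKO, against 47.7, 7.37 and 80.8 CPM in controls. For all 3 genes cKO replicate 2 and control replicate 3 were high, control replicate 2 was far below the other 5 libraries, and the groups overlapped. The log2 fold changes were 0.50 for Col1a1, 0.52 for Col1a2 and 0.47 for Col3a1, with 95% intervals that spanned 0 (adjusted p = 0.789, 0.765 and 0.814 by edgeR's quasi-likelihood test). Without control replicate 2 they were 0.0060, 0.04 and -0.03.

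The same library was the lowest of the 6 for 21 of the 39 members that averaged 1 CPM or more over the cortex libraries, where 20.7% of all genes at that level had their lowest value there. This pattern was chosen after its values were seen. It held for 5 of 11 fibrillar, 6 of 8 basement membrane and 10 of 20 other collagens. Markers of meningeal fibroblasts moved with it: all 16 listed genes, none of them a collagen, were lowest in control replicate 2, and their summed level was 433, 540.4 and 427 CPM in cKO, against 344, 146 and 485 CPM in controls. Of 16 vessel markers 10 were lowest there, with sums of 478, 571 and 497 CPM in cKO, against 483, 411 and 591 CPM in controls. Of 8 microglia markers 5 were lowest there, with sums of 84.1, 84.5 and 89.2 CPM in cKO, against 85.3, 62.9 and 91.7 CPM in controls. The remaining marker lists had 0 to 2 genes lowest there, among them 1 of 8 cortical neuron and 2 of 8 progenitor markers. Oligodendrocyte precursor markers summed lower in every cKO library than in every control. Of that list Gpr17 was called lower in cKO (log2 fold change -0.79, adjusted p = 0.0213 by edgeR's quasi-likelihood test), where 0.171% of all genes were called. With replicate numbers as pairs it was not called (adjusted p = 0.0781 by the same test). The part of these cell types in the collagen values was not tested.

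The type IV chains Col4a1 and Col4a2 varied less between cortex libraries than the type I and III chains. Col4a1 stood at 168, 229.9 and 179 CPM in cKO, against 169, 112 and 235 CPM in controls, and Col4a2 at 131, 167 and 136 CPM in cKO, against 136, 94.1 and 165 CPM in controls. Both groups overlapped for both genes, with control replicate 2 lowest. Log2 fold changes were 0.16 for Col4a1 (SE 0.22) and 0.13 for Col4a2 (SE 0.17), with adjusted p = 0.830 and 0.819 by edgeR's quasi-likelihood test; without control replicate 2 they were -0.07 and -0.06. Col18a1, the source of the fragment endostatin, stood at 23.1, 30.3 and 20.0 CPM in cKO, against 19.3, 9.56 and 30.8 CPM in controls (log2 fold change 0.30, SE 0.32, adjusted p = 0.787 by edgeR's quasi-likelihood test). Its lowest value was again control replicate 2, and without that library the fold change was -0.03. Col15a1, its closest relative, did not follow that library, at 21.8, 24.0 and 21.8 CPM in cKO, against 20.5, 21.6 and 23.2 CPM in controls. Its log2 fold change of 0.05 had a 95% interval from -0.17 to 0.27, the narrowest among the basement membrane members. The minor type IV chains Col4a4, Col4a5 and Col4a6, and Col7a1, which encodes the collagen of anchoring fibrils, averaged 5.37, 26.1, 10.7 and 6.45 CPM in cKO, against 3.74, 19.7, 6.99 and 4.40 CPM in controls. None of the 4 passed the test, at log2 fold changes of 0.41 to 0.60. Col7a1 varied most among these 4, with an SE of 0.52 and 36 to 309 counts per cortex library. Col4a6 was 8.42, 13.6 and 9.92 CPM in cKO, against 7.41, 2.65 and 10.9 CPM in controls, and Col4a5 23.7, 30.9 and 23.7 CPM, against 19.6, 14.9 and 24.4 CPM. Control replicate 2 was again the lowest library for both, and the groups overlapped.

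**Figure D3:**
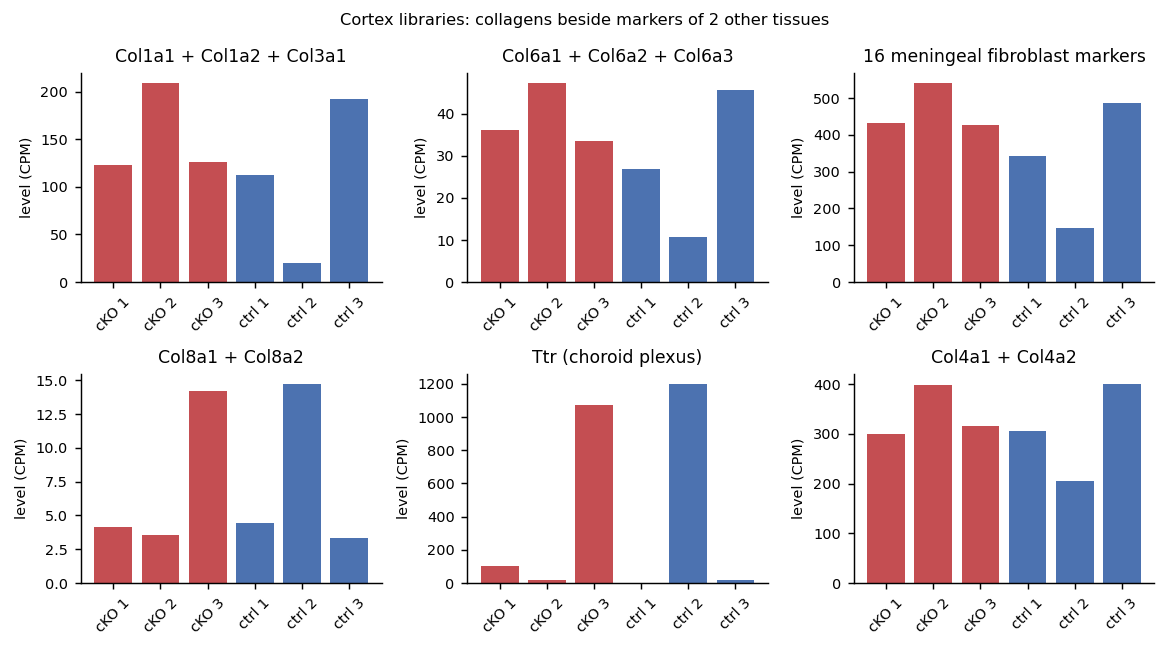
Levels in CPM in the 3 cKO and 3 control cortex libraries (bars) of summed type I and III, type VI, type VIII and type IV chains, beside the summed level of 16 meningeal fibroblast markers and the choroid plexus gene Ttr. Control replicate 2 has the shortest bar for type I and III, type VI, type IV and the meningeal markers, and shares the tallest bars for type VIII and Ttr with cKO replicate 3.

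Among the other collagens, the smallest p-values in cortex belonged to 2 fibril-associated genes on chromosome 2 and 1 transmembrane gene. Col20a1 (180986535 to 181018363, mm10, plus strand) stood at 14.0, 13.1 and 13.2 CPM in cKO, against 8.02, 7.96 and 8.67 CPM in controls. All 3 cKO libraries were above all 3 controls. A log2 fold change of 0.70 (SE 0.12, 95% interval 0.43 to 0.98) missed the threshold with edgeR's quasi-likelihood test (adjusted p = 0.0699) and passed it without the count filter (0.0282) and with DESeq2 (0.000424). Its values in DESeq2 and edgeR were both 0.70, and leaving out any library gave 0.67 to 0.74.

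Col9a3 (180597790 to 180622189, plus strand), which lies 364 kb from Col20a1 in the same direction, stood at 23.8, 20.9 and 34.5 CPM in cKO, against 48.3, 50.5 and 31.4 CPM in controls. Its groups overlapped through cKO replicate 3 and control replicate 3. The log2 fold change was -0.72 (SE 0.21, adjusted p = 0.218 by edgeR's quasi-likelihood test). DESeq2 and the fit without the count filter called it (adjusted p = 0.0147 and 0.0367). Its exons share 234 bases (6.07%) with Tcfl5 on the opposite strand, and the sources used here do not give the strand setting of the counting. Col23a1, a transmembrane collagen, stood at 23.1, 23.4 and 18.6 CPM in cKO, against 17.2, 14.2 and 16.9 CPM in controls. Its groups did not overlap, and the log2 fold change of 0.43 (SE 0.13) had an adjusted p of 0.231 by edgeR's quasi-likelihood test.

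Col14a1, a fibril-associated collagen, was also higher in every cKO library (1.19, 1.69 and 1.09 CPM, against 0.390, 0.925 and 1.04 CPM in controls), and Col6a4, a type VI chain, lower in every one (0.915, 0.553 and 0.218 CPM, against 1.31, 1.54 and 1.12 CPM in controls). With Col20a1 and Col23a1 this made 3 members apart upwards and 1 downwards of the 41 tested, where 17.3% of all genes tested had groups without overlap. The type VI chains Col6a1, Col6a2 and Col6a3, which assemble into beaded filaments, averaged 16.2, 12.9 and 9.89 CPM in cKO, against 11.9, 8.49 and 7.43 CPM in controls. All 3 were lowest in control replicate 2, and their log2 fold changes of 0.45, 0.60 and 0.41 did not pass the test. The fibril-associated Col12a1, Col16a1 and Col19a1 averaged 16.1, 8.30 and 25.0 CPM in cKO, against 12.9, 7.62 and 24.5 CPM in controls. Col26a1, and Col25a1, a transmembrane collagen of neurons, averaged 18.9 and 17.9 CPM in cKO, against 15.8 and 15.9 CPM in controls. Col25a1 ranged from 9.90 to 25.8 CPM within the controls, wider than the difference between the groups. Col9a2, a type IX chain, stood at 5.03, 6.49 and 7.22 CPM in cKO, against 5.43, 7.53 and 6.98 CPM in controls. Its groups overlapped, with a log2 fold change of -0.09 (SE 0.20). The remaining members at this level, Col22a1, Col9a1, Col13a1, Col28a1 and Col6a5, averaged 4.58, 2.68, 2.15, 1.09 and 1.11 CPM in cKO, against 5.09, 2.33, 1.49, 1.54 and 1.53 CPM in controls, and none passed the test.

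The fibrillar genes outside types I and III did not pass the test in cortex. Col11a1 stood at 32.3, 28.4 and 27.4 CPM in cKO, against 28.2, 31.8 and 22.8 CPM in controls (log2 fold change 0.09, SE 0.13). The groups overlapped, and without control replicate 3 the value was -0.03. Col5a1 and Col5a2, chains that set fibril diameter, averaged 20.1 and 24.5 CPM in cKO, against 16.7 and 19.6 CPM in controls, at log2 fold changes of 0.26 and 0.32. The cartilage collagen Col2a1 averaged 7.50 CPM in cKO and 6.17 CPM in controls, Col27a1 3.78 CPM in cKO and 3.57 CPM in controls. The log2 fold changes of Col2a1 and Col27a1 were 0.28 and 0.08. Col5a3, Col24a1 and Col11a2 averaged 0.922 to 1.48 CPM over the 2 groups, at log2 fold changes of -0.22, 0.42 and 0.23.

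The short-chain collagens Col8a1 and Col8a2 followed a different pair of libraries. Col8a1 stood at 2.20, 2.27 and 7.06 CPM in cKO, against 3.37, 7.19 and 2.15 CPM in controls, and Col8a2 at 1.92, 1.28 and 7.11 CPM in cKO, against 1.06, 7.53 and 1.17 CPM in controls. Ttr, the defining gene of the choroid plexus, stood at 100.4, 16.7 and 1070.2 CPM in cKO, against 2.40, 1199 and 19.3 CPM in controls. Both type VIII genes were thus high in cKO replicate 3 and control replicate 2, the libraries rich in Ttr, and the groups overlapped. At least 2-fold above the other 4 in both of these libraries were 2 of 39 members, where 0.144% of all genes were (20 of 13865), among them Kcne2, Folr1, Clic6 and Otx2. This pattern was chosen with the values known, and the part of choroid plexus tissue in it was not tested.

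In NPC, no collagen gene passed the unpaired test, and 10 passed it when replicate numbers were used as pairs. Unpaired, 0 of 32 members tested had an adjusted p under 0.05 by edgeR's quasi-likelihood test, where 1.89% of all genes did. An unadjusted p under 0.05 was found for 9 members, beside 18.3% of all genes, and DESeq2 called 5, where it called 7.16% of all genes. The labels do not say that a replicate number marks a shared culture. Libraries with the same number deviated together in these NPC data (residual correlations 0.48, 0.50 and 0.44), so paired values are given. With the replicate block 7 members fell in the knockdown libraries, where 12.8% of all genes tested fell, and 3 rose, where 11.9% rose; the 10 of 32 members stand beside 24.7% of all genes. Those that fell were the fibrillar Col11a1, Col11a2 and Col5a2, the basement membrane genes Col4a5, Col4a6 and Col18a1, and Col9a3. Those that rose were the fibril-associated Col9a2, Col16a1 and Col12a1. The paired medians were -0.17 over 9 fibrillar, -0.16 over 8 basement membrane and 0.03 over 15 other collagens, against 0.0033 over all genes tested.

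Some cell type markers were also called between the NPC groups in the fit with the block. That fit called 24.7% of all genes tested, 11.9% higher and 12.8% lower. The progenitor (2 of 8), oligodendrocyte precursor (1 of 5), vessel (1 of 9) and choroid plexus (1 of 4) counts below are near or under that share. Of 8 tested meningeal fibroblast markers 5 were called higher in knockdown and 1 lower. The higher ones included Islr (log2 fold change 0.79), Ogn (0.98), Slc6a13 (1.95) and Zic1 (0.28), and the lower one was the transcription factor Foxc1 (-0.43). Of 8 progenitor markers Nes was called higher (0.21) and Sox2, a transcription factor of neural stem cells, lower (-0.50). Pdgfra, the receptor that marks oligodendrocyte precursors, was the 1 of its list of 5 called, and was lower (-0.58). Of 9 tested vessel markers Flt1 was called, lower (-1.14), and of 4 choroid plexus markers Otx2, higher (1.01). Of 2 cartilage and bone markers Matn3 was called, higher (2.57). Its values rest on few counts, at 25, 23 and 14 in knockdown, against 4, 4 and 2 in control NPC. Those of Slc6a13 do too, at 32, 47 and 16 counts in knockdown, against 10, 6 and 7 in control NPC. The 1 microglia marker tested was not called, and no erythroid marker was tested. The part of these cell types in the NPC collagen values was not tested.

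**Figure D4:**
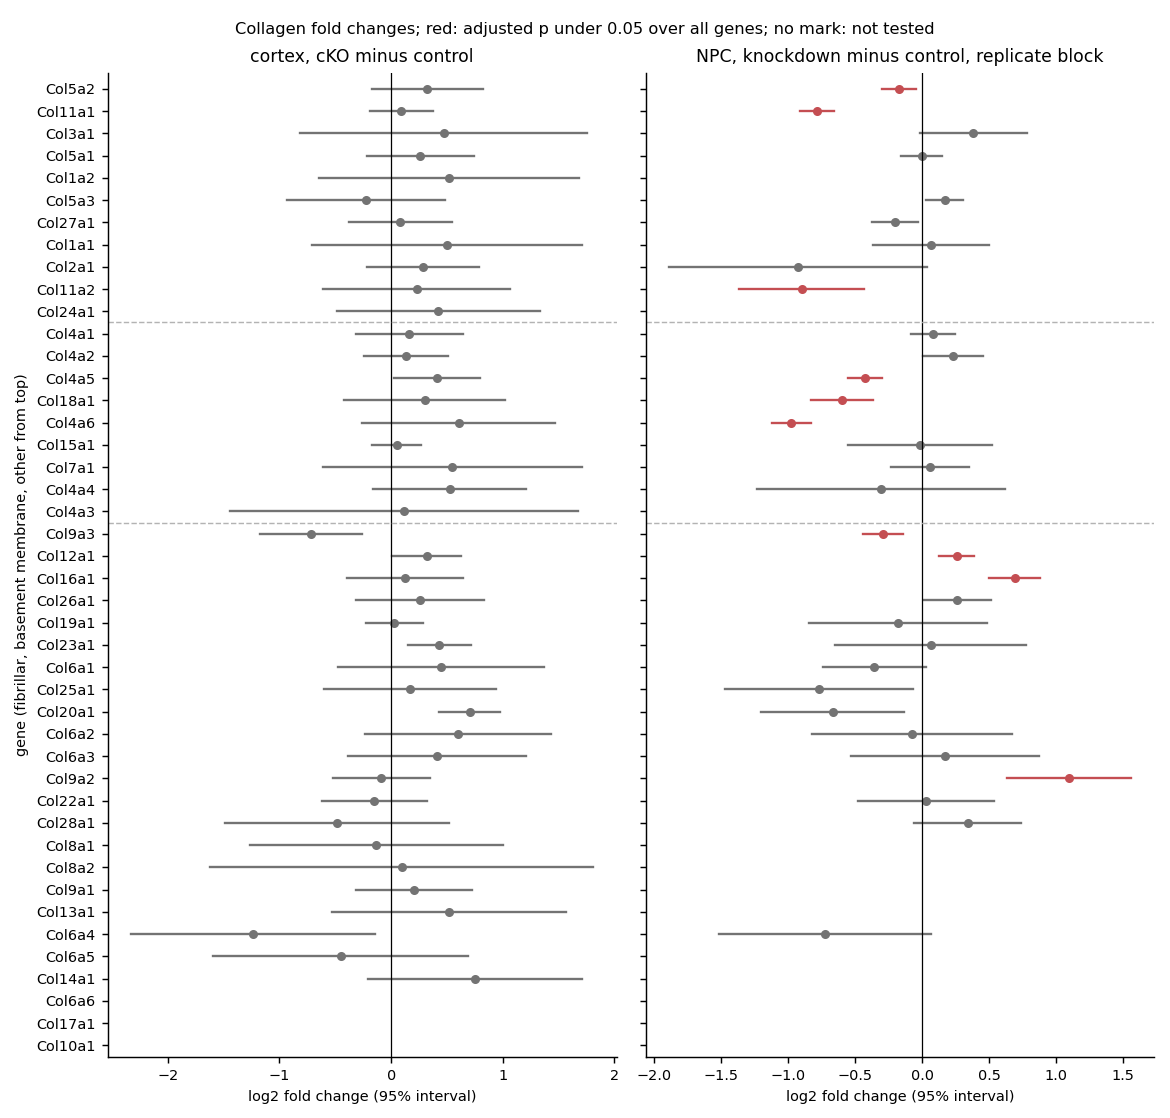
Log2 fold change with its 95% interval for each tested collagen gene, in cortex (cKO minus control, left) and in NPC with the replicate block (knockdown minus control, right). In cortex 33 of 41 points lie right of 0 and none is red (adjusted p under 0.05); in NPC 7 red points lie left of 0 and 3 right of it.

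Fibrillar collagens summed to 232, 255 and 244 CPM in the knockdown libraries, against 274, 284 and 279 CPM in control NPC, and basement membrane collagens to 156, 183 and 164 CPM, against 231, 218 and 217 CPM. In both classes every knockdown library was below every control, at ratios of 0.874 and 0.755. Members did not all follow their class. Col11a1 and Col5a2 averaged 36.0 and 81.7 CPM in knockdown, against 61.8 and 91.9 CPM in control. Col5a1 averaged 40.8 CPM in both groups. Col5a3 averaged 47.4 CPM in knockdown and 42.0 CPM in control, with overlapping groups, and neither fit called it. Col4a5, Col4a6 and Col18a1 averaged 85.0, 19.0 and 18.0 CPM in knockdown, against 114, 37.6 and 27.3 CPM in control. Col4a1 and Col4a2 averaged 24.4 and 11.4 CPM in knockdown, against 23.3 and 9.92 CPM in control. The other collagens summed to 152, 149.9 and 103 CPM in knockdown and 138, 131 and 86.2 CPM in control NPC, with overlapping groups. Replicate 3 was the lowest of both groups in that class.

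Col4a5 and Col4a6, whose proteins join in one type IV network, are neighbours on the X chromosome, transcribed away from each other from starts 1308 bases apart (mm10). Col4a6 stood at 23.2, 13.0 and 20.9 CPM in knockdown, against 45.4, 24.9 and 42.4 CPM in control NPC. Every knockdown library was below every control, with replicate 2 lowest in each group. The log2 fold change was -0.98 (SE 0.28, adjusted p = 0.130) unpaired and -0.98 (SE 0.07, adjusted p = 8.9e-07) with the block, both by edgeR's quasi-likelihood test. Col4a5 stood at 82.2, 71.1 and 102 CPM in knockdown, against 122, 92.6 and 128 CPM in control NPC. Its groups overlapped, since knockdown replicate 3 exceeded control replicate 2, but each knockdown library was below the control of the same number. The log2 fold change was -0.43 (SE 0.16, adjusted p = 0.231) unpaired and -0.43 (SE 0.06, adjusted p = 0.00015) with the block, by the same test.

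Upstream sequence is shown for this gene pair and for Col11a1, the collagens with the smallest paired p-values below control, up to the first base that RefSeq (GRCm38.p6) or GENCODE puts inside the gene. Capitals mark the GC box GGGCGG and the CCAAT box CCAAT, searched on both strands together with TATAAA. Coordinates are chrX:141474096-141474326 (minus strand) for Col4a6, chrX:141475169-141475369 (plus strand) for Col4a5 and chr3:114030290-114030478 (plus strand) for Col11a1.
Col4a6: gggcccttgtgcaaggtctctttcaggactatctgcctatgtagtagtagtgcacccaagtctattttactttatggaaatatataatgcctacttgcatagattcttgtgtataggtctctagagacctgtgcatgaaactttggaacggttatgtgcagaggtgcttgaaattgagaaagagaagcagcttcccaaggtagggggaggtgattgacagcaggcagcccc
Col4a5: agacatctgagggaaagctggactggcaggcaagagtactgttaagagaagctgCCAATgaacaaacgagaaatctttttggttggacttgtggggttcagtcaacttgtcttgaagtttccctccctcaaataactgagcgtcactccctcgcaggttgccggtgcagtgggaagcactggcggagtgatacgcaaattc
Col11a1: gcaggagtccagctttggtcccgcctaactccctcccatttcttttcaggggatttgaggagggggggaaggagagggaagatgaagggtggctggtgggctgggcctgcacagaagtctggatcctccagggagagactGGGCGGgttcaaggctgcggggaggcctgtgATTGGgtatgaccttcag
The Col4a6 stretch held none of the 3 motifs, the Col4a5 stretch 1 CCAAT, and the Col11a1 stretch 1 GGGCGG and 1 CCAAT (read as ATTGG). Over the 250 bases before all 32851 RefSeq starts, TATAAA was found in 12.4%, GGGCGG in 32.7% and CCAAT in 33.8%, and in 5, 22 and 13 of the 38 windows of the 35 matched collagen genes. These matches describe letters in those windows only.

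Col4a1 and Col4a2, the other type IV pair tested, did not pass the test. They start back to back on chromosome 8, with annotated exons that overlap by 22 bases. Col4a1 stood at 17.4, 42.2 and 13.5 CPM in knockdown, against 17.0, 41.1 and 11.9 CPM in control NPC, and Col4a2 at 6.39, 21.3 and 6.56 CPM, against 5.29, 19.1 and 5.38 CPM. Replicate 2 was high in both groups for both genes, and the groups overlapped. The paired log2 fold changes were 0.08 (SE 0.08, adjusted p = 0.492) and 0.23 (SE 0.10, adjusted p = 0.130) by edgeR's quasi-likelihood test. Col4a4 stood at 0.328 to 0.751 CPM over all 6 libraries, with a paired log2 fold change of -0.31 (95% interval -1.23 to 0.61), and Col4a3 was not tested in NPC. The difference between the type IV pairs was not tested.

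Col18a1 stood at 18.5, 22.5 and 13.1 CPM in knockdown, against 34.4, 26.7 and 20.8 CPM in control NPC. The groups overlapped, and each pair was lower in knockdown. Its log2 fold change was -0.60 in both fits (adjusted p = 0.247 unpaired and 0.0011 with the block by edgeR's quasi-likelihood test), and the block without pair 3 no longer called it. Col7a1 averaged 6.35 ± 1.41 CPM in knockdown and 6.05 ± 0.767 CPM in control NPC (SD, n = 3 each).

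Both tested chains of type XI collagen, which nucleates fibrils, fell in knockdown with the block. Col11a1 stood at 43.0, 30.1 and 34.7 CPM in knockdown, against 71.6, 53.5 and 60.3 CPM in control NPC. All knockdown libraries were below all controls, and the 3 pairs moved alike. The log2 fold change was -0.78 (SE 0.15, adjusted p = 0.0547) unpaired and -0.79 (SE 0.06, adjusted p = 1.3e-06) with the block by edgeR's quasi-likelihood test. Col11a2 stood at 2.33, 1.43 and 2.29 CPM in knockdown, against 3.18, 3.78 and 4.23 CPM in control NPC, also without overlap. Its paired log2 fold change was -0.90 (SE 0.21, adjusted p = 0.0078 by the same test), and the call was lost without pair 2 or pair 3.

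Of the 3 type V chains, Col5a2 fell with the block and the other two did not pass the test. Col5a2 stood at 87.2, 76.4 and 81.4 CPM in knockdown, against 89.7, 94.2 and 91.7 CPM in control NPC. The groups did not overlap, but the step was small, with a paired log2 fold change of -0.17 (SE 0.06, adjusted p = 0.0485 by edgeR's quasi-likelihood test), and the call was lost without pair 2 or pair 3, with RLE size factors and with DESeq2. Col5a1 averaged 40.8 ± 5.84 CPM in knockdown and 40.8 ± 2.48 CPM in control NPC, and Col5a3 47.4 ± 7.59 CPM in knockdown and 42.0 ± 3.20 CPM in control NPC (SD, n = 3 each). The paired log2 fold change of Col5a1 was -0.0055, with a 95% interval from -0.16 to 0.15. Col27a1 averaged 23.7 CPM in knockdown and 27.4 CPM in control NPC, and Col2a1 stood at 0.146 to 1.32 CPM over the 6 libraries. Col1a1 stood at 2.41, 3.11 and 2.69 CPM in knockdown, against 2.43, 3.51 and 2.03 CPM in control NPC. The libraries of the groups overlapped, with a paired log2 fold change of 0.06 (SE 0.20).

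The fibril-associated collagens went both ways. Col9a2 stood at 3.98, 2.56 and 3.06 CPM in knockdown, against 1.61, 1.37 and 1.45 CPM in control NPC. All knockdown libraries were above all controls, and the log2 fold change was 1.11 (adjusted p = 0.0654) unpaired and 1.10 (SE 0.21, adjusted p = 0.0022) with the block by edgeR's quasi-likelihood test. Col9a3, which encodes a partner chain of type IX collagen, went the other way, at 21.8, 27.0 and 19.6 CPM in knockdown, against 27.0, 33.0 and 23.9 CPM in control NPC. Its groups overlapped, each pair was lower in knockdown, and the paired log2 fold change was -0.30 (SE 0.07, adjusted p = 0.0073), a call that was lost without pair 2 or pair 3. Col16a1 stood at 27.5, 40.4 and 28.9 CPM in knockdown, against 20.5, 23.8 and 15.7 CPM in control NPC. Its groups did not overlap, and the paired log2 fold change was 0.69 (SE 0.09, adjusted p = 8.8e-05) by edgeR's quasi-likelihood test, against an unpaired adjusted p of 0.130.

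Col12a1 stood at 76.8, 29.3 and 29.2 CPM in knockdown, against 62.4, 24.9 and 24.9 CPM in control NPC. Replicate 1 was high in both groups, so that the groups overlapped while each pair was higher in knockdown. The paired log2 fold change was 0.26 (SE 0.06, adjusted p = 0.0070 by edgeR's quasi-likelihood test), and the call was lost without pair 3. Col20a1 stood at 1.99, 1.26 and 1.97 CPM in knockdown, against 2.36, 3.17 and 2.71 CPM in control NPC. Every knockdown library was below every control, but the paired log2 fold change of -0.67 (SE 0.25) did not pass the test (adjusted p = 0.0662). Groups without overlap were found for 2 members upwards and 6 downwards of the 32 tested, where 23.4% of all genes had them. Among the downward ones was Col6a4, at 14, 17 and 10 counts in knockdown, against 16, 27 and 24 in control NPC. Its paired log2 fold change of -0.73 (SE 0.36) did not pass the test. Col6a4 was also lower in every cKO library than in every control cortex library. Col26a1, Col22a1 and Col23a1 averaged 10.2, 2.82 and 1.21 CPM in knockdown, against 8.49, 2.77 and 1.20 CPM in control NPC, and did not pass the test. Col19a1 and Col25a1 averaged 0.826 and 0.737 CPM in knockdown, against 0.933 and 1.29 CPM in control NPC.

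**Figure D5:**
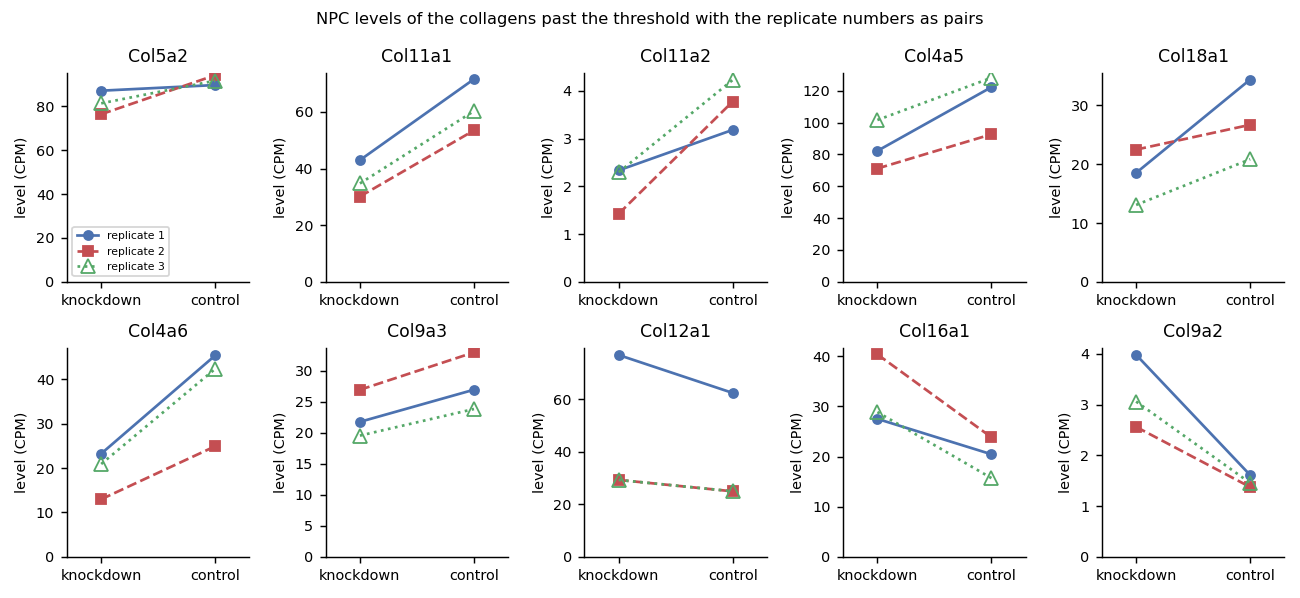
Level in CPM of the 10 collagen genes that passed the threshold with the replicate block, in knockdown (left) and control (right) NPC, with libraries of the same replicate number joined by a line. All 3 lines run downwards towards knockdown for the 7 genes that fell and upwards for Col12a1, Col16a1 and Col9a2; replicates 2 and 3 of Col12a1 lie on each other.

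A second set of collagens was high in replicate 2 of both NPC groups. Col3a1 stood at 0.383, 24.6 and 1.24 CPM in knockdown, against 0.179, 21.6 and 0.541 CPM in control NPC. Col15a1 stood at 0.344, 7.65 and 0.401 CPM in knockdown, against 0.215, 7.48 and 0.609 CPM in control NPC. Col6a1, Col6a2 and Col6a3 stood at 9.72, 5.99 and 5.48 CPM in knockdown replicate 2 and 10.5, 5.65 and 5.46 CPM in control replicate 2, against 0.0383 to 2.40 CPM in the other 4 libraries. For these genes replicate 2 was far above the rest in both groups, which overlapped. Among genes of at least 1 CPM in both replicate 2 libraries, 5 of 27 members were at least 4-fold above every other NPC library, where 0.143% of all such genes were (18 of 12553). This rule was chosen after the values were seen.

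The other 13 genes of that set included Pax3 and Pax7, transcription factors of dorsal neural tube and neural crest, and Postn, Tgfbi, Bgn and Dcn, which encode matrix proteins. Pax3 stood at 7.52 CPM in knockdown and 6.14 CPM in control replicate 2, and at 0.0 to 0.0728 CPM in the other libraries. Of 16 meningeal fibroblast markers 2 (Bgn and Dcn) met the rule, and 0 of 16 vessel markers did. The summed meningeal markers ran from 107 to 189 CPM in knockdown and from 89.9 to 144 CPM in control NPC. Replicate 2 was in the middle of each group, but most of each sum was Zic1. By replicate, Zic1 had 3585, 2616 and 1754 counts in knockdown and 2902, 1920 and 1624 in control NPC. The order of the sums thus does not show that of the remaining markers. The part of other cells in this pattern was not tested. Col28a1 was also highest in replicate 2, at 7.09 CPM in knockdown and 5.00 CPM in control NPC, less than 4-fold above the rest. With the block, the log2 fold changes of Col3a1 and Col15a1 were 0.38 (SE 0.18, adjusted p = 0.155) and -0.02 (SE 0.25, adjusted p = 0.974) by edgeR's quasi-likelihood test.

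The difference between the NPC and the cortex effect was tested in one fit of all 12 libraries. Of 41 members tested 1 passed, Col20a1, where 1.46% of all genes did, with a difference of -1.35 (log2, SE 0.25, adjusted p = 0.0209 by edgeR's quasi-likelihood test). It was higher in all 3 cKO libraries and lower in all 3 knockdown libraries than in every control of the same system, and neither effect alone passed edgeR's test with the count filter and all libraries. Without the count filter the cortex effect passed (adjusted p = 0.0282), and with the block but without pair 1 the NPC effect did (adjusted p = 0.0039). The call was lost when any 1 cKO library, control NPC replicate 2 or control NPC replicate 3 was left out, and without the libraries rich in Ttr (adjusted p = 0.0938). With the replicate block 3 members passed, where 3.65% of all genes did: Col11a1 (-0.87), Col20a1 (-1.36) and Col9a2 (1.20).

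Genes that process, bind or surround collagens were examined from lists of known function. In cortex 0 genes of the 5 lists passed edgeR's quasi-likelihood test, with 2 of 20 folding, 1 of 13 cleavage and cross-linking, 0 of 9 receptor, 1 of 14 basement membrane partner and 2 of 10 protease genes at an unadjusted p under 0.05, beside the 10.9% of all genes. Colgalt1, which glycosylates collagen, came closest, at 73.0 ± 4.91 CPM in cKO and 98.8 ± 5.36 CPM in control (SD, n = 3 each; log2 fold change -0.44, adjusted p = 0.0706). The gelatinase Mmp9 averaged 6.49 ± 0.476 CPM in cKO and 10.1 ± 0.422 CPM in control (log2 fold change -0.63, adjusted p = 0.114). P4ha3, a proline hydroxylase, averaged 8.69 CPM in cKO and 5.58 CPM in control, Adamts14, which removes propeptides, 1.55 CPM in cKO and 0.759 CPM in control, and Tll1, a relative of Bmp1, 4.84 CPM in cKO and 3.23 CPM in control. The receptors Adgrg1 and Itgb1 averaged 99.3 and 160.4 CPM in cKO, against 106 and 152 CPM in control. Lamb2 and Agrn, partners in basement membranes, averaged 21.1 and 455 CPM in cKO, against 17.3 and 502 CPM in control, and the inhibitor Timp2 362 CPM in cKO, against 324 CPM in control.

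In NPC 0 genes of these lists passed the unpaired test, with 2 of 20, 1 of 11, 2 of 8, 1 of 13 and 3 of 9 at an unadjusted p under 0.05 in the same order, beside the 18.3% of all genes. With the replicate block, 3 of 20 folding genes passed: Plod2, a lysyl hydroxylase, fell (122 CPM in knockdown and 144 CPM in control), as did the transcription factor Creb3l1 (10.8 CPM in knockdown and 15.1 CPM in control), and Colgalt2 rose (26.2 CPM in knockdown and 18.1 CPM in control). Of 11 cleavage and cross-linking genes, Bmp1, the procollagen C-proteinase (224 CPM in knockdown and 269 CPM in control), and Loxl1, a lysyl oxidase (1.18 CPM in knockdown and 2.39 CPM in control), fell. The enhancers of Bmp1 Pcolce (16.4 CPM in knockdown and 9.93 CPM in control) and Pcolce2 and the related protease Tll2 rose. Of 8 receptor genes, Itga1 (17.4 CPM in knockdown and 11.3 CPM in control) and Adgrg1, a receptor for type III collagen (589 CPM in knockdown and 523 CPM in control), rose. Among 13 basement membrane partners, Hspg2, which encodes perlecan, fell (log2 fold change -0.17), and Lamb2, Nid1 and Nid2 rose (0.20, 0.30 and 0.63). Of 9 proteases and inhibitors, Timp1 and Timp4 fell (-0.61 and -0.34) and Mmp15 rose (0.26). The paired adjusted p of these genes ran from 0.00023 to 0.0456, beside the 24.7% of all genes called in that fit.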

How the data were processed

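The authors deposited 1 table of raw counts per gene for 12 mouse RNA-seq libraries, which were checked to be whole numbers with different totals (26074094 to 36713205). Alignment used HISAT2 and mm10, per the submitters' processing notes; the sources used here do not give versions, the counting program, its annotation or its strand setting. After filterByExpr and TMM normalisation, counts were tested by the quasi-likelihood method of edgeR 4.0.16 (R 4.3.3), over all genes of each system's 6 libraries, with Benjamini-Hochberg adjustment and a threshold of 0.05. One fit of all 12 libraries gave the difference between the NPC and cortex effects. Fold changes are cKO or knockdown minus control, and intervals are 95%.

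Replicate numbers shared between groups were used as pairs in NPC, where same-numbered libraries deviated together (0.48, 0.50 and 0.44), and not in cortex (0.02, -0.16 and -0.02). The labels do not give this pairing, which was taken from these same data. Replicates of each group differed by more than counting noise. RPKM used exon lengths of GENCODE mouse release 21, and promoters came from RefSeq GRCm38.p6. Class sums are descriptions: 3 libraries against 3 cannot go below p = 0.1 in an exact permutation test. Alternatives were DESeq2 1.42.0, no filter on counts, size factors by RLE, the replicate block, and fits without each library or without libraries that exceeded 1000 CPM of Ttr; leaving out pairs, DESeq2 and RLE with the block were added after seeing the data. The procedure was tested on simulated counts. The collagen members, the related gene lists and the marker lists were chosen with earlier results of these data known. All 44 members are accounted for; those of at least 1 CPM are named with levels. Library values are given for members called in any of the 3 comparisons with or without the block, all libraries included, for Col1a1, Col1a2, Col3a1, Col4a1, Col4a2, Col15a1 and Col18a1, and for the 3 smallest p-values of each comparison. Of related lists, called genes and the 2 smallest p-values per list and comparison are named. Col6a4, Col14a1, type VI, Col8a1 and Col8a2, and the genes that moved with a library were given by library after their values were seen.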

Additional observations from a re-analysis of the deposited data

Results flagged for a closer look

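In the fit without the replicate block, Col20a1 was the 1 collagen gene whose effects in the 2 systems differed by a test of the difference itself. The NPC effect minus the cortex effect was -1.35 on the log2 scale (adjusted p = 0.0209, edgeR's quasi-likelihood test), with 0.70 in cortex and -0.66 in NPC. The call was lost without any 1 cKO library, without control NPC replicate 2 or 3, and without the libraries rich in Ttr (adjusted p = 0.0938). The block called 3 members (Col11a1, Col20a1 and Col9a2), edgeR without the count filter 2 and DESeq2 4, Col20a1 among them each time. Its cortex levels of 13.1 to 14.0 CPM in cKO, against 7.96 to 8.67 CPM in control, rest on 1390 and 864 counts over 3 libraries, and its NPC levels of 1.26 to 1.99 CPM in knockdown, against 2.36 to 3.17 CPM in control, on 145 and 229 counts.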

How the results depend on the processing

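Counts of calls depended on the setting most. In cortex, genes called over all (27) came to 156 without the count filter, 332 with DESeq2, 1 with the replicate block and 0 to 28 without 1 library; collagen genes called (0) came to 2 without the filter and 2 with DESeq2, and to 0 without any 1 library. In NPC, genes called (270) came to 1021 with DESeq2, 3522 with the replicate block, 47 to 304 without 1 library, and, with the block, to 4376, 2170 and 1636 without pair 1, 2 or 3, 2437 with DESeq2 and 3489 with RLE. Collagen genes called in NPC (0) came to 1 without the filter, 5 with DESeq2, 10 with the replicate block, 0 to 1 without 1 library, and, with the block, to 13, 9 and 5 without pair 1, 2 or 3, 9 with DESeq2 and 9 with RLE. For the difference between systems, genes called (242) came to 770 with DESeq2, 604 with the block, 88 without the libraries rich in Ttr and 98 to 275 without 1 library; collagen genes (1) to 2 without the filter, 4 with DESeq2, 3 with the block, 0 without the Ttr-rich libraries and 0 to 2 without 1 library. With the block, collagen genes called in cortex stayed at 0. The related genes and cell type markers named as called in NPC passed only with the block, apart from Flt1 and Matn3, which also passed unpaired.

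Directions turned as follows (log2), and the cause was not tested. Without the Ttr-rich libraries Col4a1 was -0.021 and Col4a2 -0.014 in cortex. Without 1 library the ranges in cortex were -0.034 to 0.20 for Col11a1, -0.046 to 0.38 for Col11a2, -0.087 to 0.26 for Col16a1, -0.032 to 0.76 for Col18a1, -0.030 to 1.19 for Col3a1, -0.070 to 0.45 for Col4a1, -0.059 to 0.33 for Col4a2, -0.22 to 0.043 for Col9a2, and -0.021 to 0.44 for the summed basement membrane level. In NPC they were -0.35 to 0.85 for Col12a1, -2.87 to 2.76 for Col15a1, -0.11 to 0.30 for Col1a1, -0.30 to 0.27 for Col23a1, -3.18 to 4.58 for Col3a1, -0.59 to 0.76 for Col4a1, -0.61 to 1.10 for Col4a2, and -0.35 to 0.24 for the median of the other collagens. The basement membrane median kept its sign, over -0.62 to -0.093. With the block, Col15a1 was -0.015, and -0.053 and -0.091 without pair 1 or 2, -0.019 with DESeq2 and -0.013 with RLE; without pair 3 Col1a1 was -0.094 and Col23a1 -0.37. Members of a few counts per library, such as Col1a2 in NPC, are limited by depth, and the others by the spread between 3 libraries.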

Other observations

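Both chains of type I collagen join in one molecule, but their counts in culture were unequal. Col1a1 had 63, 96 and 74 counts in the knockdown NPC and 68, 92 and 60 in control NPC, while Col1a2 had 1, 3 and 2 counts in knockdown NPC and 7, 3 and 2 in control NPC. In cortex Col1a2 had more counts than Col1a1 in all 6 libraries.

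Replicate 1 of both NPC groups had its own collagen values. Col12a1 stood at 76.8 CPM in knockdown and 62.4 CPM in control replicate 1, against 24.9 to 29.3 CPM in the other 4 libraries. Col9a1, another fibril-associated gene, stood at 0.957 CPM in knockdown and 0.966 CPM in control replicate 1, against 0.109 to 0.259 CPM in the others. These genes were picked after their values were seen. Among genes of at least 1 CPM in both replicate 1 libraries, 1 of 25 collagen genes (Col12a1) was at least 2-fold above every other NPC library in both, where 20 of 12474 genes (0.16%) were. Of 5 oligodendrocyte precursor markers, Pdgfra, Sox10 and Gpr17 were also well above the rest in the same libraries, while Cspg4 ran from 65.4 to 87.3 CPM in knockdown and from 69.9 to 81.4 CPM in control NPC, and Olig1 from 1687 to 1826 CPM in knockdown and from 1634 to 1674 CPM in control NPC. Pdgfra stood at 50.6, 12.0 and 7.72 CPM in knockdown, against 62.2, 22.0 and 12.5 CPM in control NPC. Sox10 stood at 19.4, 2.59 and 1.38 CPM in knockdown, against 10.9, 3.47 and 2.81 CPM in control NPC, and Gpr17 at 14.8, 1.46 and 1.38 CPM in knockdown, against 9.26, 2.59 and 1.18 CPM in control NPC. Their part in the collagen values was not tested.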
